A study of Mus musculus with 3 samples.

Results

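The C-type lectin receptors of myeloid cells were examined in mouse bone marrow-derived macrophages (BMDMs) exposed to lipoproteins of Borrelia burgdorferi (BbLP). The list held 9 genes matched by symbol, Clec4d, Clec4e, Clec4n, Clec4a1, Clec4a2, Clec4a3, Clec5a, Clec7a and Clec12a, and 8 of the 9 had a row among the 32285 genes of the deposited matrices. Clec7a, the β-glucan receptor Dectin-1, had no row in the matrices and was not analysed here. The cells came from bone marrow of female C3H/HeN mice aged 6 to 8 weeks and were grown into macrophages with conditioned medium. The cells are a culture model rather than a tissue. The paper describes pooled marrow for its cultures in general, but for the single-cell libraries it describes independent treatment of cells from 3 mice. The groups were untreated cells given PBS (Ctrl) and cells given 1 µg/mL BbLP for 1 h (LP1) or 4 h (LP4). No group carried a genetic change. By the paper's methods, the control cells were harvested at the later of the treatment times. LP1 thus had no control of the same time, and every LP1 over Ctrl ratio also spans a difference in collection time. Each group was 1 droplet-based single-cell RNA library made from 3 pooled wells, so there was no replicate, no test was possible, and a difference between conditions and a difference between libraries cannot be told apart.

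C-type lectin receptors are surface proteins with a carbohydrate-recognition fold through which macrophages, neutrophils and dendritic cells sense glycans and glycolipids of microbes and of damaged cells. Some of them, such as Clec4d, Clec4e and Clec4n, signal through the adaptor Fcer1g, and Clec5a signals through Tyrobp, and both adaptors recruit the kinase Syk. Others, such as Clec4a2 and Clec12a, carry an inhibitory motif that recruits phosphatases such as Ptpn6.

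After filtering, 6071 Ctrl, 5065 LP1 and 4670 LP4 cells remained, with medians of 5133, 9343 and 11784 transcript molecules (unique molecular identifiers, UMIs) per cell. Sequencing depth and the amount of RNA per cell cannot be told apart in these totals. All 10 macrophage markers were detected in every library and summed to 11556, 11765 and 10601 UMIs per 1000000 UMIs of the library (CPM) in Ctrl, LP1 and LP4, whereas 10 lymphocyte markers summed to 3.03, 2.59 and 1.56 CPM. Most of the macrophage sum was Lyz2, at 9209.5, 9684.4 and 8716.5 CPM. In LP4 over Ctrl, 1 of the 10 was at least 2-fold higher (Fcgr1) and 2 were at least 2-fold lower (C1qa and C1qb). Among all genes with at least 10 CPM in either library these shares were 10.6% and 9.91%. Between 4 and 10 cell barcodes were shared by any pair of libraries before filtering.

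All 9 genes lie on chromosome 6 (GRCm38.p6, GENCODE annotation). Clec5a stood alone at chr6:40574894-40585821 on the minus strand. Clec4a1, Clec4a3, Clec4a2, Clec4n, Clec4d and Clec4e followed each other in this order within 368 kb, at chr6:122921848-123289870, the first 5 on the plus strand and Clec4e on the minus strand, so that the 3′ ends of Clec4d and Clec4e face each other. Clec12a and Clec7a lay at chr6:129342691-129472779. Promoter sequences from RefSeq (GRCm38.p6, 250 bases before to 50 after the transcription start) were found for 8 of the 9 genes. They are shown for Clec4d and Clec4e, the most abundant pair, and for Clec5a, the member with the highest LP1 over Ctrl ratio. The windows are chr6:123261857-123262156 on the plus strand for Clec4d, chr6:123289822-123290121 on the minus strand for Clec4e, and chr6:40585756-40586055 on the minus strand for Clec5a. Capitals mark matches on either strand to the PU.1 core AGGAAG, the AP-1 site TGANTCA, the C/EBP site TTGCNNAA, the interferon-stimulated response element (ISRE; GAAA, 2 free bases and GAAA) or the NF-kB site.
Clec4d: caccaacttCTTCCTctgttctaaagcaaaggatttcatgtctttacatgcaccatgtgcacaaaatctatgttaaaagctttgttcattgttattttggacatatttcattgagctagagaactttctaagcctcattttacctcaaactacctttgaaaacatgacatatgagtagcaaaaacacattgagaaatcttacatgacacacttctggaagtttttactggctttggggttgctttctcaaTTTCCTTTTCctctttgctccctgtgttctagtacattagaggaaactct
Clec4e: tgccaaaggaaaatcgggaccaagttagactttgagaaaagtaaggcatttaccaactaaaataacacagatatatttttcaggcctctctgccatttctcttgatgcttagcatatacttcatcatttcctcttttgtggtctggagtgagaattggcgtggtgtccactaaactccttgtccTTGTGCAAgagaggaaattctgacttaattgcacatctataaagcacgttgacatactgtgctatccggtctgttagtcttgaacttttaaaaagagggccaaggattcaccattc
Clec5a: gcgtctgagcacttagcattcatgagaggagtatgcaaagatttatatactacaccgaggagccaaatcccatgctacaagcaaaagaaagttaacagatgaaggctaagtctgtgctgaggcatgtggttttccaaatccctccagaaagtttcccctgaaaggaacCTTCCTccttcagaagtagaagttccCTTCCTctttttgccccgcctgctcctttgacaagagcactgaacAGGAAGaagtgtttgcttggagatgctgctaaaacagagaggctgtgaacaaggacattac

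The Clec4d window held 1 PU.1 core at position -241 and 1 ISRE match starting at position 1. The Clec4e window held 1 C/EBP match at position -66, and the Clec5a window held 3 PU.1 cores at positions -82, -56 and -11. No NF-kB match occurred in any of these windows, which says only that these letters were not in them. Among 32544 promoters of the same length, 35.1% held the PU.1 core, 3.45% the ISRE, 10.8% the C/EBP site, 7.79% the AP-1 site and 8.49% the NF-kB site. These matches are descriptions of the letters and were not tied to binding.

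Levels of the receptors spanned a wide range in every library. The libraries were made to read transcripts at their 3′ ends, so CPM values were compared between genes without division by length. Whether intronic reads were counted is not given, so comparisons of levels between genes are approximate. Clec4e (Mincle), a receptor for glycolipids such as mycobacterial cord factor, stood at 421 CPM in Ctrl (95% interval 414 to 427), 440 CPM in LP1 (434 to 446) and 1101 CPM in LP4 (1092 to 1109). Its LP4 level lay far above the other 2 libraries, which were close to each other. Clec4d (MCL), the partner of Clec4e in recognizing the same glycolipids, stood at 714 CPM in Ctrl (706 to 723), 755 CPM in LP1 (747 to 762) and 959 CPM in LP4 (951 to 966). These exact Poisson intervals cover counting error only.

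Relative to Ctrl, Clec4e was 2.62-fold higher in LP4, a log2 ratio of 1.39 (1.36 to 1.41), and 1.05-fold higher in LP1, a log2 ratio of 0.06 (0.03 to 0.09). Clec4d was 1.34-fold higher in LP4, with a log2 ratio of 0.42 (0.40 to 0.45), and 0.08 (0.06 to 0.10) on the log2 scale in LP1. Both genes were therefore highest in LP4, but Clec4e moved further. The order of the pair changed: Clec4d was the most abundant receptor in Ctrl and LP1, and Clec4e was in LP4. Clec4e ranked 347th among all genes by CPM in Ctrl and 109th in LP4, while Clec4d ranked 192nd and 140th. The 8 receptors together summed to 1622 CPM in Ctrl, 1705 CPM in LP1 and 2550 CPM in LP4. Clec4e made up 25.9% of the receptor UMIs in Ctrl and 43.2% in LP4, and Clec4d 44.0% and 37.6%.

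**Figure D1:**
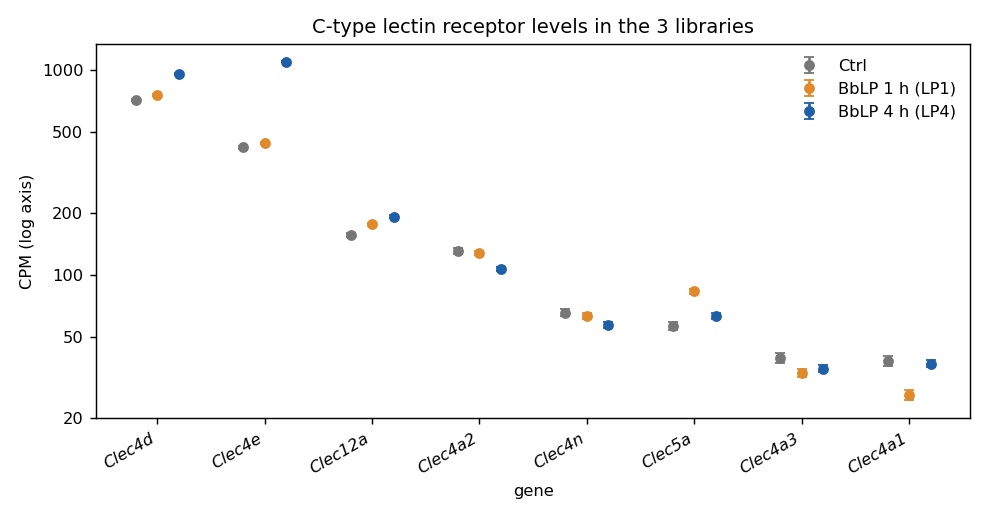
CPM on a log axis of the 8 receptors in the Ctrl, LP1 and LP4 libraries, with 1 library per condition and bars for exact 95% Poisson intervals, which are often smaller than the points. Clec4e stands at 421, 440 and 1101 CPM, and the other genes keep their levels within a narrower range.

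All 8 measured receptors exceeded 10 CPM in every library, and a change of at least 2-fold was used as the call, since no test was available. In LP4 over Ctrl, 1 of the 8 receptors (Clec4e) was at least 2-fold higher and 0 were at least 2-fold lower, against 10.6% and 9.91% of the 8019 genes with at least 10 CPM in either library. Clec4e was 484th from the top of those 8019 genes. In LP4 over LP1 the count was again 1 higher (Clec4e, log2 ratio 1.32) and 0 lower, against 8.75% and 7.55% of 7956 genes. In LP1 over Ctrl, 0 of the 8 were at least 2-fold higher or lower, against 0.697% and 0.465% of 7747 genes. The shares of the receptors past 2-fold were thus near those of all genes. For LP1 over Ctrl, LP4 over Ctrl and LP4 over LP1, the 8 receptors had median log2 ratios of 0.02, 0.06 and 0.10, beside -0.02, -0.07 and -0.06 over all genes compared.

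The activating receptors Clec5a and Clec4n stayed below 2-fold in every comparison of libraries. Clec5a (MDL-1), which couples to Tyrobp, stood at 56.3 CPM in Ctrl, 83.4 CPM in LP1 and 62.9 CPM in LP4. It was the member with the highest LP1 over Ctrl ratio, 0.57 (0.49 to 0.64) on the log2 scale, 339th from the top of 7747 genes, and its LP4 over Ctrl ratio was 0.16 (0.08 to 0.24). Its LP1 level in CPM was thus above both other libraries. Clec5a was the only receptor of which this held in CPM, while under TMM or medians of ratios Clec4a2 and Clec4n were also slightly higher in LP1 than in Ctrl. Clec4n (Dectin-2), a receptor for fungal mannans, stood at 65.5, 62.8 and 56.9 CPM in Ctrl, LP1 and LP4. Its log2 ratio over Ctrl was -0.06 in LP1, with an interval that included 0 (-0.14 to 0.02), and -0.20 (-0.28 to -0.13) in LP4.

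The inhibitory receptors and their relatives split. Clec12a (MICL), an inhibitory receptor for uric acid crystals, stood at 157 CPM in Ctrl, 177 CPM in LP1 and 193 CPM in LP4, with log2 ratios over Ctrl of 0.17 (0.12 to 0.22) and 0.30 (0.25 to 0.34). Clec4a2 (DCIR1), which carries an inhibitory motif, stood at 131, 128 and 107 CPM, with a log2 ratio of -0.30 (-0.35 to -0.24) in LP4 over Ctrl. Clec12a was thus highest in LP4 and Clec4a2 lowest there. Clec4a1 (DCIR4) stood at 38.1, 26.0 and 36.9 CPM, so that it was lower in LP1 than in either other library, by a log2 ratio of -0.55 (-0.66 to -0.44) over Ctrl, 248th from the bottom of 7747 genes. Its LP4 level lay back at that of Ctrl, with a log2 ratio of -0.05 and an interval that included 0 (-0.15 to 0.05). Clec4a3 (DCIR3) stood at 39.4, 33.4 and 34.9 CPM, with log2 ratios over Ctrl of -0.24 (-0.34 to -0.14) in LP1 and -0.17 (-0.27 to -0.07) in LP4.

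In the order of levels, neighbouring receptors had intervals that overlapped only between Clec4a3 and Clec4a1, in Ctrl and in LP4. The ratios near 0 depended on the scaling: scaling by edgeR's trimmed mean of M-values (TMM) or by medians of ratios moved the median of all genes in LP4 over Ctrl by 0.17 and 0.21 on the log2 scale. Under these scalings Clec4a1 turned from -0.05 to above 0, and under medians of ratios Clec4n and Clec4a3 also did in LP4 over Ctrl, as did Clec4n and Clec4a2 in LP1 over Ctrl under both. Relative to the median of all genes, Clec4a2 stayed between -0.28 and -0.20 in LP4 over Ctrl over the 9 alternatives, Clec4n between -0.15 and -0.09, and Clec4a1 between -0.03 and 0.03. Relative to the same median, Clec4e stayed between 1.44 and 1.51, Clec4d between 0.48 and 0.52 and Clec12a between 0.35 and 0.40. Clec4a2 shared 14.5% of the 30-base words in the last 500 bases of its transcripts with other genes, chiefly Clec4b1 and Clec4a4, and overlapped Gm44132 on the same strand, so its counts are less certain than those of Clec4d, Clec4e, Clec4a1, Clec5a and Clec12a, which shared 0%.

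To compare single cells of different depth, a random draw of 2000 UMIs was kept from each cell, so that 122 shallower cells of Ctrl, 13 of LP1 and 45 of LP4 dropped out. A Clec4e UMI was then found in 49.3% of Ctrl cells (exact 95% binomial interval 48.1 to 50.6%), 51.0% of LP1 cells (49.6 to 52.4%) and 79.8% of LP4 cells (78.6 to 81.0%). Before thinning the shares were 71.4%, 82.9% and 97.2%. A Clec4d UMI was found in 73.2% of Ctrl cells (72.1 to 74.4%), 73.7% of LP1 cells (72.5 to 74.9%) and 80.9% of LP4 cells (79.8 to 82.1%), and in 93.4%, 98.0% and 98.7% before thinning. Thus the Clec4e share in Ctrl lay well below that of Clec4d, and the 2 shares lay side by side in LP4.

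The counts of Clec4e per cell lay higher throughout in LP4. The share of cells with 4 or more Clec4e UMIs was 4.14%, 4.39% and 23.2% in the order Ctrl, LP1 and LP4, and the mean was 0.887, 0.926 and 2.31 UMIs per thinned cell. For Clec4d, cells with 4 or more UMIs made up 8.49%, 9.80% and 16.2%. The variance over the mean of Clec4e was 1.68 in Ctrl and 1.88 in LP4, and that of Clec4d was 1.27 and 1.42, where 1 would be the value of pure counting. The share of cells in which both genes were seen was 36.6% for Ctrl, 38.3% for LP1 and 65.2% for LP4, and that of cells with neither was 14.1%, 13.6% and 4.43%. Across cells of a library, the Pearson correlation of their log counts was 0.03, 0.05 and 0.06 over 5949 Ctrl, 5052 LP1 and 4625 LP4 cells, which in such sparse counts is no finding.

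**Figure D2:**
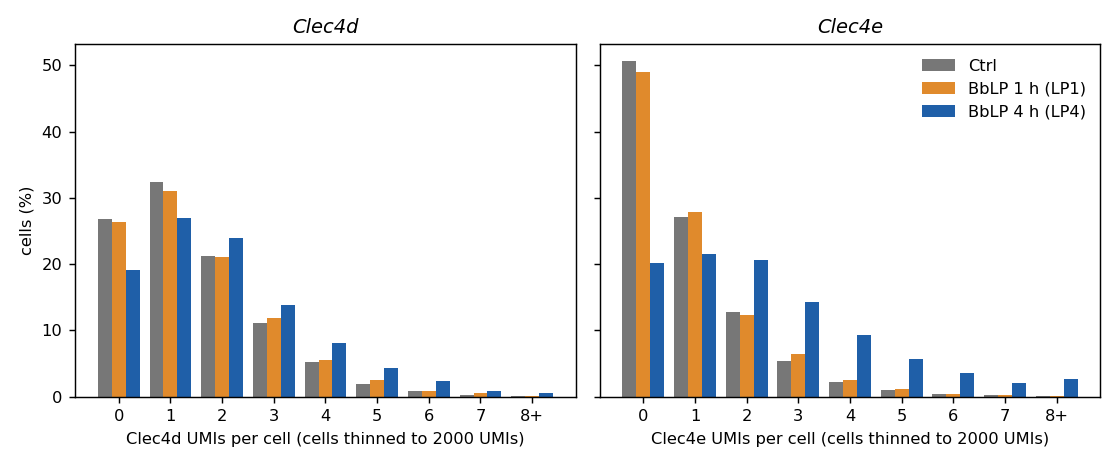
Percent of cells (y axis) with 0 to 7 or at least 8 UMIs (x axis) of Clec4d (left) and Clec4e (right) in the Ctrl, LP1 and LP4 libraries, each cell thinned to 2000 UMIs. Ctrl and LP1 nearly coincide, while for Clec4e the LP4 cells with 4 or more UMIs make up 23.2% against 4.14% in Ctrl.

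The other receptors were seen in fewer cells. At 2000 UMIs, Clec12a was found in 27.1%, 30.6% and 31.8% of Ctrl, LP1 and LP4 cells, and Clec4a2 in 20.9%, 20.3% and 17.1%. Clec5a was found in 8.91%, 13.8% and 9.88%, so LP1 again stood above both other libraries. Clec4n was found in 11.1%, 10.3% and 9.28%, Clec4a1 in 8.14%, 5.86% and 7.03%, and Clec4a3 in 7.72%, 7.42% and 6.64%. The median cell held UMIs of 2 of the 8 receptors in each library, and the share of cells with none was 5.58%, 5.52% and 1.77%.

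As a check on free RNA, the same shares were read in 13 stromal-like cells, which should lack these receptors. Clec4d was found in 0 of these 13 cells (exact 95% upper limit 24.7%), and Clec4e in 1 of 13 (7.69%, 0.195 to 36.0%). Their median depth was 14193 UMIs before thinning, and before thinning Clec4d was found in 5 of the 13 (38.5%), with 51 UMIs or 224 CPM (167 to 294), and Clec4e in 5 of the 13, with 19 UMIs or 83.3 CPM (50.2 to 130.1). The Clec4d and Clec4e levels in these few cells were thus above 0 and below those of each library. At 2000 UMIs the upper limits in these cells, 24.7% for Clec4d and 36.0% for Clec4e, lay below the share of the same gene in each library. At 1000 UMIs the limit was 36.0% for both genes. It lay above the Clec4e share of Ctrl cells at that depth, 31.5%, and below their Clec4d share, 50.6%. For Clec12a, found in 0 of the 13 at 2000 UMIs, the limit of 24.7% lay below its share in each library. At 4000 UMIs Clec12a was found in 2 of the 13, with an upper limit of 45.4%. Before thinning it was found in 4 of the 13 (30.8%), at 43.9 CPM (21.0 to 80.7). The result for Clec12a thus depended on the depth. How much of these shares is background was not measured. With so few cells, the shares of Clec4n, Clec4a1, Clec4a2, Clec4a3 and Clec5a cannot be set apart from background this way. Among thinned cells, Clec4n was found in 0 of 70 neutrophil-like cells (exact 95% upper limit 5.13% for cells with a UMI) and in 39.2% of 212 dendritic-like cells (32.5 to 46.1%), so its share differed between these groups of cells.

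**Figure D3:**
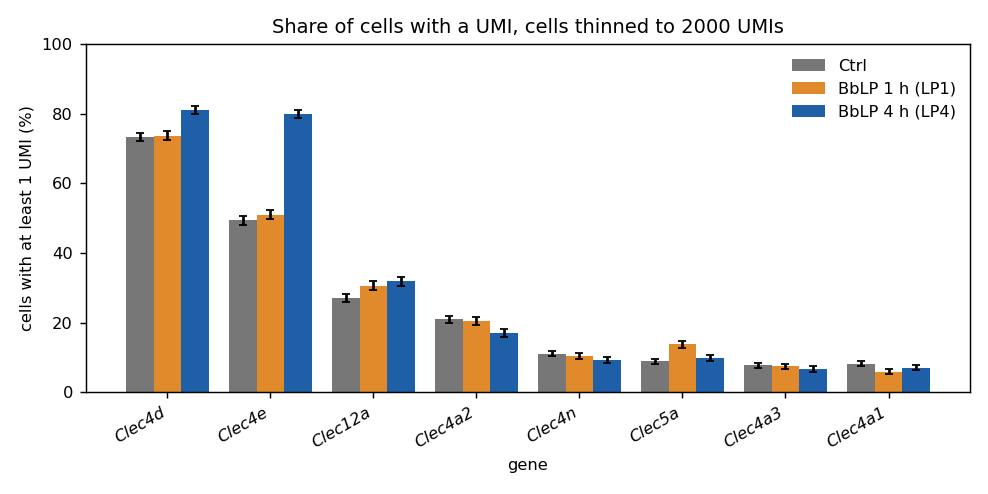
Percent of cells with at least 1 UMI of each receptor (y axis) in the Ctrl, LP1 and LP4 libraries, with each cell thinned to 2000 UMIs and bars for exact 95% binomial intervals. Clec4e goes from 49.3% in Ctrl to 79.8% in LP4, and Clec5a is highest in LP1 at 13.8%.

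Cells were clustered on genes that differed by less than 1.5-fold between libraries, without the receptors, to see whether the differences were shared by the subsets of the culture. Of 9 clusters, A to D were macrophage-like, E was macrophage-like and led by cell cycle genes, F was dendritic-like, G neutrophil-like, H a small macrophage-like cluster led by the stress gene Ddit3, and I stromal-like. The name of F rests on H2-Eb1, H2-Aa, H2-Ab1 and Cd74 alone. Of the same marker list, Flt3 had 8, 12 and 12 UMIs over all Ctrl, LP1 and LP4 cells, Ccr7 10, 21 and 20, and Zbtb46 77, 129 and 63. In F, 5 macrophage markers were found in at least 50% of cells, beside 4 in C and in D and 6 in A, B and E. The name of G rests on Mpo, Elane, S100a9 and Ngp. Of the neutrophil list, Retnlg had 30, 29 and 2 UMIs over all Ctrl, LP1 and LP4 cells, and Cxcr2 13, 33 and 17. How mature the cells of G were was not examined. Clusters A to F had at least 50 cells in each library, and A alone made up 35.3%, 30.6% and 34.8% of the Ctrl, LP1 and LP4 libraries. Macrophage-like clusters other than E held 91.9%, 90.4% and 92.9% of the cells.

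In 6 of the 6 clusters compared, the LP4 level of Clec4e was at least 2-fold that of Ctrl. Its log2 ratio ranged from 1.04 in cluster E (0.95 to 1.12) to 1.60 in cluster C (1.53 to 1.68), and it was 1.23 in the dendritic-like cluster F (1.03 to 1.44). Among A to F, cluster C had the lowest Clec4e level in every library, at 239, 271 and 728 CPM, and cluster A stood at 512, 530 and 1390 CPM. The ratio was thus above 0 in every subset, and the interval reached below 2-fold in cluster E. In LP1 over Ctrl the log2 ratio of Clec4e lay between -0.04 in F and 0.18 in C.

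For Clec4d the LP4 level exceeded the Ctrl level in each of clusters A to F, by log2 ratios of 0.26 in E (0.19 to 0.34) to 0.52 in A (0.49 to 0.56). Its level was highest in cluster A among A to F, at 878, 967 and 1263 CPM in Ctrl, LP1 and LP4. For Clec4a2 the LP4 level in CPM was below the Ctrl level in each of the 6, from -0.91 in F (-1.32 to -0.49) to -0.19 in C (-0.28 to -0.10). The other scalings were not applied within clusters. In all cells they moved the median of all genes in LP4 over Ctrl by 0.17 and 0.21, about the size of the Clec4a2 ratio in C. The other receptors did not move alike: the LP4 over Ctrl interval lay above 0 in 4 of 6 clusters and below 0 in none for Clec12a, below 0 in 3 and above 0 in none for Clec4n, and on either side in 1 cluster each for Clec5a and Clec4a1. For Clec4a3 it lay below 0 in 1 and above 0 in none. At resolution 0.8, with 9 clusters compared, Clec4n lay above 0 in 2 and below in 4, Clec5a above in 2 and Clec4a1 above in 3, with none below for either. Clec4a3 then lay above 0 in 1 and below in 2. Of those 9 clusters, 2 nearly followed the library, with 1455 Ctrl and 66 LP4 cells in 1 and 100 and 1035 in the other. Clec4n lay below 0 in both of them (-0.82 and -0.41). In LP1 over Ctrl, Clec5a lay above 0 in 5 of 6 clusters, up to 0.63 in D, and Clec4a1 lay below 0 in 5 of 6, down to -0.76 in F.

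**Figure D4:**
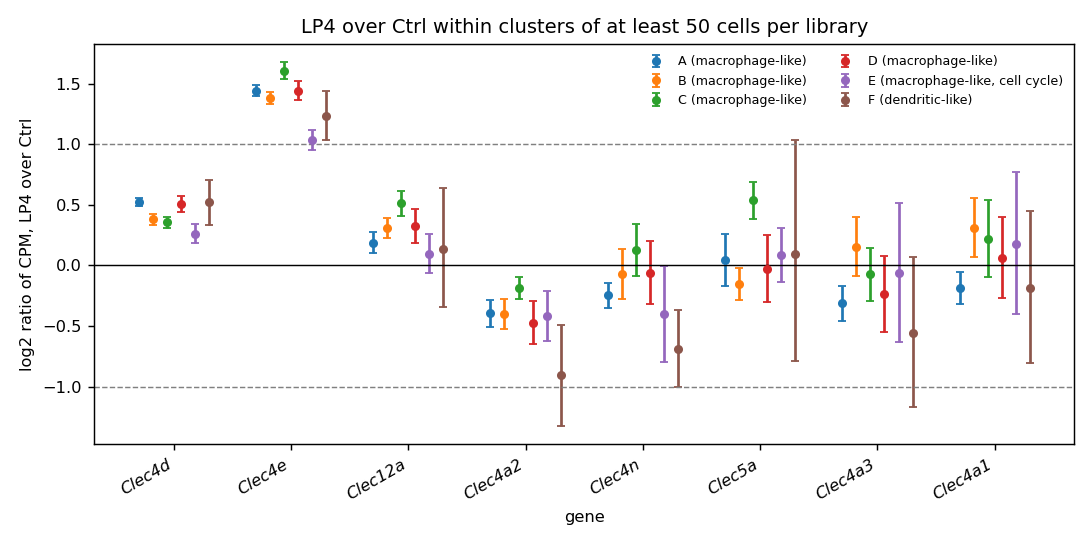
Log2 ratio of CPM, LP4 over Ctrl (y axis), of each receptor (x axis) within clusters A to F, with bars for exact 95% intervals from counting error and dashed lines at 2-fold. Clec4e lies between 1.04 and 1.60 in every cluster, Clec4d between 0.26 and 0.52, and Clec4a2 below 0 throughout in CPM.

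The receptors differed in where they were expressed. Clec4n was highest in the dendritic-like cluster F among A to F, at 347, 517 and 216 CPM in Ctrl, LP1 and LP4, and cluster A followed at 127, 116 and 107 CPM, while B, C, D and E lay between 23.7 and 52.8 CPM. Clec4a1 and Clec4a3 had the same 2 clusters on top, with Clec4a1 at 82.6 CPM in A and 79.6 CPM in F in Ctrl, and Clec4a3 at 68.3 CPM and 90.4 CPM. Clec5a had the opposite order, with 28.7 CPM in A, 36.6 CPM in F and 83.4 CPM in E in Ctrl. Clec5a reached 182, 270 and 492 CPM in the 85 neutrophil-like cells of cluster G, which had too few cells per library to be compared. In G, Clec4d was at 153, 92.3 and 384 CPM and Clec4e at 526, 397 and 1051 CPM, so Clec4e was above Clec4d there in every library, whereas in all cells together it was so only in LP4.

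The summed level of 12 neutrophil markers was also highest in LP4, at 600, 495 and 828 CPM in Ctrl, LP1 and LP4. All 12 were detected in each library, with Retnlg and Cxcr2 under 1 CPM. From Ctrl to LP4, S100a9 went from 139 to 264 CPM, Csf3r from 35.2 to 78.8 CPM and Lcn2 from 17.5 to 42.0 CPM. Mpo, Elane, Ltf, Retnlg and Cxcr2, each under 10 CPM, went the other way. The neutrophil-like cluster G made up 0.53%, 0.49% and 0.60% of the Ctrl, LP1 and LP4 cells. The summed level of 8 monocyte markers was 84.3, 83.9 and 246 CPM. All 8 monocyte markers were detected in every library, and of the 4 that reached 10 CPM in Ctrl or LP4, 3 were higher in LP4 than in Ctrl (F13a1, 156 against 40.4 CPM, Ms4a4c, 45.0 against 8.43 CPM, and Hp, 20.0 against 9.58 CPM) and Ccr2 was lower (13.2 against 19.5 CPM). Within the macrophage-like clusters A, B, C, D and H the Clec4e log2 ratio, LP4 over Ctrl, was 1.43, beside 1.39 in all cells.

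Genes with a level pattern most like each receptor were sought over the 18 points formed by 6 clusters in 3 libraries, among 8103 genes. The points share libraries, and the correlations are descriptions. Clec4e ran most closely with AI504432 (Pearson r = 0.99), Sdc4 (0.98), a cell-surface proteoglycan, and Adora2b (0.97), an adenosine receptor. Clec4d ran with Csf3r (0.93), the receptor for granulocyte colony-stimulating factor, Il1a (0.93) and H2-K1 (0.92). Clec4n ran with the protease Ctsh (0.98), Emb (0.96) and Tmem176b (0.95), and Clec5a with Timm8a1 (0.97), Mdh2 (0.96) and Nomo1 (0.95). For Clec4a1 the nearest gene was Acaa1a (0.93), for Clec4a2 Ifi30 (0.93), for Clec4a3 Rilpl2 (0.94) and for Clec12a Pex19 (0.88). The next 2 genes for each of these 4 were C3 and Rbms1, Padi2 and Ncf4, Igsf6 and Gngt2, and Rnase4 and BC005537.

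The adaptors through which the activating receptors signal had lower CPM in LP4 than in Ctrl, although for Fcer1g the direction turned under medians of ratios. Fcer1g, the adaptor of Clec4d, Clec4e and Clec4n, stood at 1797, 1687 and 1580 CPM in Ctrl, LP1 and LP4, a log2 ratio of -0.19 (-0.20 to -0.17) in LP4 over Ctrl, which was -0.02 under TMM scaling and 0.02 under medians of ratios. Tyrobp, the adaptor of Clec5a, stood at 3478, 2299 and 1804 CPM, with log2 ratios over Ctrl of -0.60 in LP1 and -0.95 in LP4. The CPM of both adaptors was above that of every receptor. Syk stood at 551, 526 and 325 CPM, a log2 ratio of -0.76 in LP4 over Ctrl, and Card9, which relays its signal, at 5.21, 4.36 and 3.09 CPM, below the 10 CPM limit.

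Of 21 signalling genes examined, 20 passed the 10 CPM limit, and in LP4 over Ctrl 1 was at least 2-fold higher and 5 at least 2-fold lower, with a median log2 ratio of -0.17, beside 10.6% higher and 9.91% lower among all genes. The higher gene was the kinase Src, at 35.8, 34.2 and 89.5 CPM in Ctrl, LP1 and LP4 (log2 ratio 1.32). Among the 5 lower genes were Inpp5d, the lipid phosphatase SHIP1, at 138, 94.2 and 40.5 CPM (-1.77), and Vav3, an exchange factor, at 589, 561 and 181 CPM (-1.70). Ptpn6, the phosphatase recruited by inhibitory receptors, stood at 106, 91.1 and 48.0 CPM (-1.14), and the kinase Tec at 137, 122 and 62.0 CPM (-1.14). The fifth was Nfatc2, which stayed under 50 CPM. In LP1 over Ctrl, 0 of the 20 were past 2-fold in either direction.

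**Figure D5:**
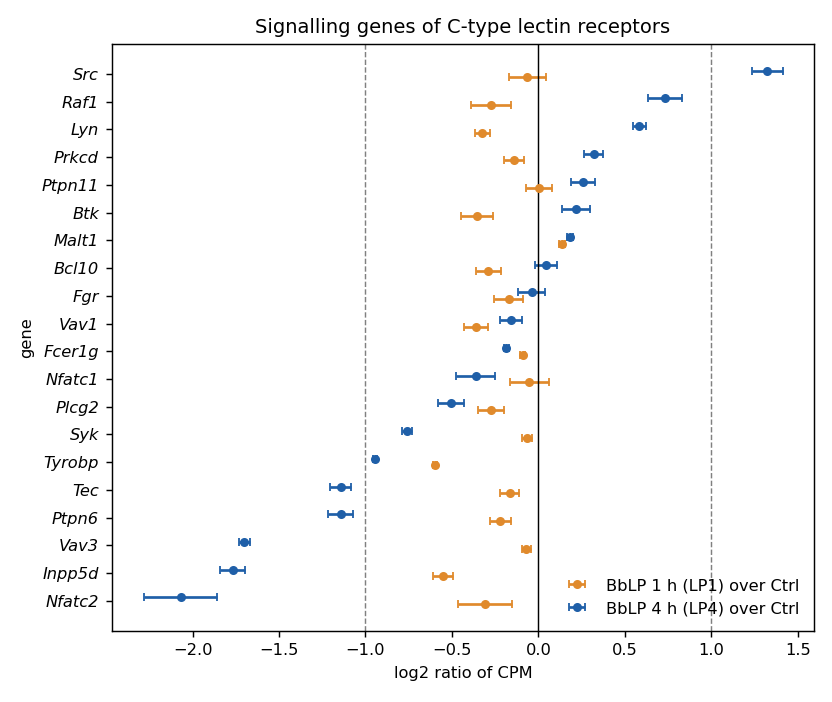
Log2 ratio of CPM (x axis) of 20 signalling genes of C-type lectin receptors (y axis) in LP1 over Ctrl and LP4 over Ctrl, with bars for exact 95% intervals from counting error and dashed lines at 2-fold. In LP4, Src (1.32) lies above 2-fold and 5 genes lie below it, and no LP1 point passes 2-fold.

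Of 29 other C-type lectins listed, 8 reached 10 CPM in Ctrl or LP4. In LP4 over Ctrl 3 of these 8 were at least 2-fold higher and 0 lower, against 10.6% and 9.91% of all genes. They were Cd69, an early activation antigen of leukocytes (10.2, 12.6 and 81.0 CPM, log2 ratio 2.99), Clec2d (92.2, 73.4 and 295 CPM, 1.68) and Clec2i, which stayed under 50 CPM. In LP1 over Ctrl 0 of 8 passed 2-fold in either direction, against 0.697% and 0.465% of all genes. Around the receptors on chromosome 6, 26 neighbouring genes were examined, of which 5 reached 10 CPM and 1, Cd69, was at least 2-fold higher in LP4 than in Ctrl, with 0 lower, against the same 10.6% and 9.91% of all genes. Near Clec4d and Clec4e, the neighbours of the same block that reached 10 CPM were Foxj2, C3ar1 and Necap1, with log2 ratios of -0.02, -0.24 and 0.55 in LP4 over Ctrl, so the 2-fold change in that block was that of Clec4e.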

How the data were processed

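Droplet-based 3′ single-cell libraries (Chromium v3.1) were prepared from 3 pooled wells per condition. The authors aligned reads and counted UMIs with Cell Ranger, 7.1.0 per the file headers and the submitters' notes, on mm10, and deposited UMI counts per gene and barcode, which are not normalized. Whether intronic reads were included is not given in the sources used here. The members and gene lists were chosen with earlier results of these data known.

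Cells with over 500 UMIs, over 500 genes and under 5% mitochondrial UMIs were kept. The mitochondrial limit removed 18 Ctrl, 43 LP1 and 273 LP4 barcodes, and kept UMIs totalled 35688939, 52475723 and 61402275. UMIs were summed per library and divided by the library total (CPM). Intervals are exact at 95% (Poisson for CPM, conditional binomial for ratios, binomial for shares) and cover counting error only. On counts simulated as Poisson for LP4 over Ctrl, 95.8% of intervals over 8019 genes held the true ratio. The intervals rest on the same model, so this checks the calculation only. It says nothing of the spread between cells or between libraries. With 1 library per condition no test was run, and calls are 2-fold differences among genes with at least 10 CPM in 1 of the 2 libraries.

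Clusters came from the Leiden method (resolution 0.5, scanpy 1.11.5) on 2000 variable genes that differed by less than 1.5-fold between libraries, centred within each library. Clusters were named from marker lists. Scrublet marked 0, 1 and 1 cells as doublets, so its calls were not relied on, and no cell was removed on them. Why so few were marked was not checked. The alternative by doublet score rests on the scores of the same caller.

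Named genes were all members, the adaptors Fcer1g and Tyrobp with Syk and Card9, genes of the signalling and lectin lists past 2-fold that reached 50 CPM in either library, neighbours past 2-fold with at least 10 CPM, and the 3 genes most like each member. A further signalling gene is not reported here and is in none of the counts of that list. Other named list genes and neighbours were chosen after their values were seen. Alternatives covered cell filters, scaling (edgeR 4.0.16 for TMM), thinning, cluster resolution and doublet scores.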

Additional observations from a re-analysis of the deposited data

Results flagged for a closer look

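In clusters A to F, 4 receptors had log2 ratios over Ctrl whose counting intervals lay on opposite sides of 0 in different clusters. With 1 library per condition the difference between clusters was not tested. The share of all genes meeting the same rule was not computed, so the count cannot be read as particular to the receptors. For Clec4n in LP1 over Ctrl the log2 ratio was 0.58 in the dendritic-like cluster F and -0.13 in the macrophage-like cluster A. For Clec4a2 in LP1 over Ctrl it was 0.45 in F and -0.13 in the macrophage-like cluster B. For Clec4a1 in LP4 over Ctrl it was 0.31 in B and -0.19 in A. For Clec5a in LP4 over Ctrl it was 0.54 in the macrophage-like cluster C and -0.15 in B. These are CPM ratios, and other scalings were not applied within clusters. In all cells, TMM and medians of ratios raised the median of all genes by 0.07 and 0.08 in LP1 over Ctrl. In LP4 over Ctrl they raised it by 0.17 and 0.21. The ratios below 0 were small beside such shifts, so their sign may depend on the scaling. At resolutions 0.3 and 0.8 the opposite sides remained for Clec4n at both, for Clec4a1 at 0.3 alone, and for Clec4a2 and Clec5a at neither, since no interval then lay wholly below 0. At 0.8 the Clec4n ratio below 0 (-0.85) came from a cluster that nearly followed the library, with 100 Ctrl, 52 LP1 and 1035 LP4 cells. The search left out LP4 over LP1. In that comparison Clec4a3 was at 0.55 (0.32 to 0.78) in B and -0.30 (-0.43 to -0.16) in A. Its intervals also lay on opposite sides of 0 at resolutions 0.3 and 0.8.

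The 273 LP4 barcodes over the mitochondrial limit entered only the alternative without that limit, in which the Clec4e log2 ratio of LP4 over Ctrl was 1.37. Clec4e stood at 848 CPM in them, Clec4d at 771 CPM, Clec12a at 195 CPM and Clec5a at 83.0 CPM, each above the level of the same gene in the kept Ctrl cells (421, 714, 157 and 56.3 CPM). The other receptors lay below their kept Ctrl levels of 65.5, 38.1, 131 and 39.4 CPM in these barcodes, with Clec4n at 46.2 CPM, Clec4a1 at 21.1 CPM, Clec4a2 at 117 CPM and Clec4a3 at 26.9 CPM.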

How the results depend on the processing

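No paired analysis was possible because each condition was a single library. The 4 counts of receptors past 2-fold were the same under all 9 alternatives of cell filters, scaling and cell subsets, and the log2 ratio of Clec4e in LP4 over Ctrl ranged from 1.36 to 1.59. The median log2 ratio of the receptors in LP4 over Ctrl was 0.06, and 0.23 under TMM scaling and 0.26 under medians of ratios. These scalings shift all genes together. The shares of cells depended on depth by construction. Thinned to 1000 UMIs, Clec4d was found in 50.6% of Ctrl and 60.9% of LP4 cells, and Clec4e in 31.5% and 62.2%. At 4000 UMIs the shares were 90.7% and 94.9% for Clec4d, and 65.9% and 91.7% for Clec4e. Without thinning they were 93.4% and 98.7%, and 71.4% and 97.2%. The highest log2 ratio of Clec4e over clusters was 1.60, and 1.45 at resolution 0.3, where fewer clusters were formed. All values describe 3 libraries without replicates, and in cluster F the intervals of the less abundant receptors were wide.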
